A study of Mus musculus with 12 samples.

Results

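The small proline-rich protein genes Sprr1a, Sprr1b, Sprr2b, Sprr2d, Sprr2e, Sprr2f, Sprr2g, Sprr2h, Sprr2i and Sprr3 were followed in mouse endometrium after mating. Members were taken by gene symbol, with no threshold on a measured value. All 10 genes had a transcript cluster, the array's unit of measurement, that carried their symbol alone, among 35556 transcript clusters in the table. Sprr2b was also named on a further cluster that it shares with Sprr2a1, Sprr2a2 and Sprr2a3, and that cluster is given once, apart from the members.

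The series holds 3 kinds of RNA pool, each measured on 4 Affymetrix Mouse Gene 1.0 ST arrays. The intact-mated pools came from CBAF1 females that had mated with intact BALB/c males 8 h earlier and so received sperm and seminal plasma. The vasectomised-mated pools came from CBAF1 females that had mated with vasectomised BALB/c males 8 h earlier and so received seminal plasma without sperm. The authors state that such an ejaculate also lacks secretions of testis, epididymis and vas deferens. They add that the surgery may subtly alter accessory gland secretions. Sperm cannot be told apart from these in the comparison of the mated groups. The unmated control pools came from virgin CBAF1 females that the labels place in estrus. The series design puts the collection of these controls in the evening of pro-estrus, so the hour of collection and the stage of the cycle cannot be told apart from mating in either comparison with controls. Each array carried RNA pooled from 4 females, so 16 females stood behind each group and the spread between arrays is a spread between pools. The endometrial layer was scraped from the opened uterus and holds epithelium, stroma and immune cells. In such bulk RNA, fewer cells of a type and less RNA per cell cannot be told apart.

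Small proline-rich proteins are substrates of transglutaminases, enzymes that crosslink proteins, and they bridge other proteins in the cornified envelope, the hardened shell beneath the membrane of squamous cells in skin, mouth and oesophagus. Their genes sit side by side in the epidermal differentiation complex, together with the genes for loricrin, involucrin and the S100 proteins. In the mouse uterus, which is lined by simple columnar epithelium, several Sprr2 genes are known to be raised by estrogen, while Sprr1a is known for its induction in stressed heart muscle and injured neurons. The human SPRR promoters are known to carry elements for AP-1, Ets and octamer-binding factors.

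The stretches of 250 bases before the annotated transcription start are shown for the neighbours Sprr2b, Sprr2d, Sprr2e and Sprr2f, of which the last was not called in any comparison, for Sprr2k as a relative with the same motifs, and for Sprr1a as a member of another branch. Sequences are from RefSeq on GRCm38.p6, read 5′ to 3′ on the gene's strand, and capitals mark matches to the AP-1 letters TGAGTCA on either strand, the octamer ATTTGCAT on either strand and the TATA box TATAAA on the gene's strand.
Sprr2b (chr3:92316455-92316704, plus strand): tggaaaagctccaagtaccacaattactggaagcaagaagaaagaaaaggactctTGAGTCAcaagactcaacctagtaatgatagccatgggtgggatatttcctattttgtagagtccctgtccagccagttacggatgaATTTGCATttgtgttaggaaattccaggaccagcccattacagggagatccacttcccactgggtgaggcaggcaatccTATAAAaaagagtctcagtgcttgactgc
Sprr2d (chr3:92338890-92339139, plus strand): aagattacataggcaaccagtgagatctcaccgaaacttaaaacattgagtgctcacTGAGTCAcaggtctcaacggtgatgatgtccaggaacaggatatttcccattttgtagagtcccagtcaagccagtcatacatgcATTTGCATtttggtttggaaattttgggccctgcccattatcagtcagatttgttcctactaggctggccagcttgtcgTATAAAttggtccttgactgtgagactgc
Sprr2e (chr3:92351893-92352142, plus strand): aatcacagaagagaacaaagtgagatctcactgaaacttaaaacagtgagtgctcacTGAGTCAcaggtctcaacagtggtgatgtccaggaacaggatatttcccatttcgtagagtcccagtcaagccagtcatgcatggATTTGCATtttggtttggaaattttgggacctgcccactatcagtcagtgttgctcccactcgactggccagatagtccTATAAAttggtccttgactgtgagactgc
Sprr2f (chr3:92364937-92365186, plus strand): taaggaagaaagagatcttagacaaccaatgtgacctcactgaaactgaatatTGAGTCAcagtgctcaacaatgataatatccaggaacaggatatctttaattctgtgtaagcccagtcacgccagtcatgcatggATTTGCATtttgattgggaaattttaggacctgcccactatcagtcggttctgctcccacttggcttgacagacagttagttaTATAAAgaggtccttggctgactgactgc
Sprr2k (chr3:92432332-92432581, plus strand): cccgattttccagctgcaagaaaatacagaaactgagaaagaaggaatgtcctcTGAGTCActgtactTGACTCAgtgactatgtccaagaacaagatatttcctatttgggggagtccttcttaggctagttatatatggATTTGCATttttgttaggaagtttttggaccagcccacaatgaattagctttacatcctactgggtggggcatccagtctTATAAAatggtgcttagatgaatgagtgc
Sprr1a (chr3:92485882-92486131, minus strand): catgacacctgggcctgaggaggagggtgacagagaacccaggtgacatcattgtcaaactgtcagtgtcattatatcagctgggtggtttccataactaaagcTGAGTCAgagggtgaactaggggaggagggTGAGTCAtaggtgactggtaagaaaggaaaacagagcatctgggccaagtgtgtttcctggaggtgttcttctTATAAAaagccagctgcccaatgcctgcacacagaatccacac

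Promoter windows of 300 bases, from 250 before to 50 after the start, were on hand for 9 of the 10 members, Sprr2g being the exception. The AP-1 letters occurred in 7 of these 9 windows, against 5.2% of 32851 windows in the mouse table. The octamer occurred in 6 of 9, against 1.74%, and the TATA box in 9 of 9, against 8.32%. Sprr2b, Sprr2d, Sprr2e, Sprr2f, Sprr2h and Sprr2i held all 3 motifs in the same order and at almost the same distances. Their AP-1 matches began between positions -198 and -193, their octamers between -112 and -108, and their TATA boxes at -29, with -1 as the base just before the start. Only 8 windows in the table, or 0.024%, held all 3, and 7 of them were Sprr2 genes, Sprr2k being the 7th and Vmn2r99, a vomeronasal receptor gene, the only other. These promoters are copies of a common ancestor, so their matches are not independent of each other. The 7 windows from Sprr2b to Sprr2k were 67.0% to 89.7% identical in pairs, with Sprr2d and Sprr2e the closest. Each was at most 61.7% identical to the windows of Sprr1a, Sprr1b, Sprr3 and Sprr4. The windows of Sprr2a1, Sprr2a2 and Sprr2a3 held no match to any of the 3 motifs. They were 58.7% to 61.7% identical to the windows from Sprr2b to Sprr2k. Windows rest on annotated starts, and whether those of the Sprr2a genes fall at the matching place was not tested. The STAT letters TTCCNGGAA, the interferon element GAAANNGAAA and the estrogen response palindrome GGTCANNNTGACC, searched on both strands, were found in 0 of 9 windows, against 1.15%, 3.44% and 0.07% of all windows. With shares this small, 0 of 9 would be usual for any 9 windows. The search took exact letters within 300 bases, so these absences say little. The estrogen half-site GGTCA was found in 2 of 9, Sprr2f and Sprr3, against 40.48%.

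**Figure D1:**
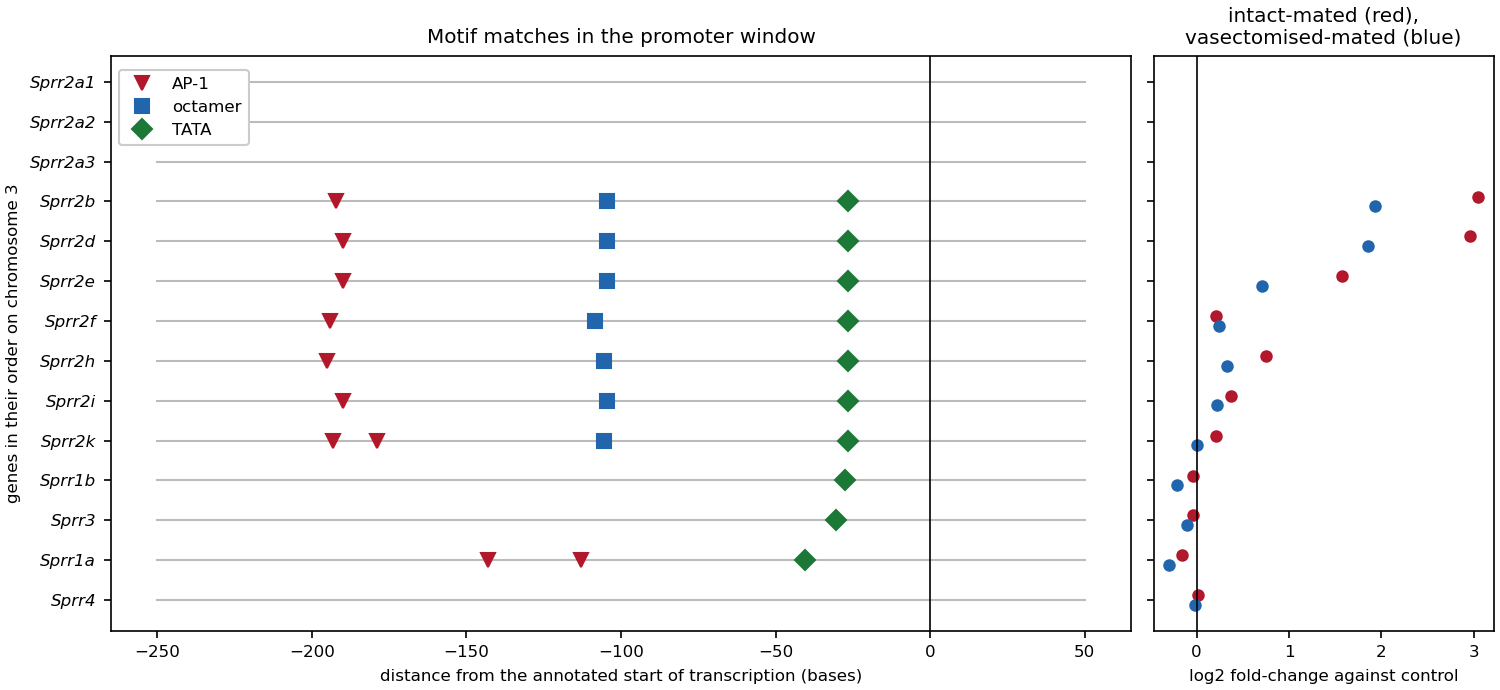
Left, matches to AP-1 (triangles), octamer (squares) and TATA (diamonds) letters in 14 Sprr promoter windows, by distance in bases from the annotated start, with genes in their order on chromosome 3. Right, log2 fold-change against unmated control for intact-mated (red) and vasectomised-mated (blue) endometrium where a gene has a cluster of its own. The 6 Sprr2 members in the map share 1 arrangement of motifs, while their fold-changes after intact mating run between 0.21 for Sprr2f and 3.05 for Sprr2b. The windows of Sprr2a1, Sprr2a2, Sprr2a3 and Sprr4 hold no match, and whether the annotated Sprr2a starts fall at the matching place was not tested.

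Expression was compared on the log2 scale of the deposited values. A gene was called higher or lower when its fold-change reached 1.5 and its limma p, adjusted by Benjamini-Hochberg over all clusters, was no more than 0.05. After intact mating 5 of the 10 genes were higher than in unmated controls and 0 were lower, where 1.95% of all clusters were called higher and 1.55% lower. The 5 were Sprr2b, Sprr2d, Sprr2e, Sprr2g and Sprr2h. After vasectomised mating 3 of 10 were higher, Sprr2b, Sprr2d and Sprr2g, and 0 were lower, where 0.987% of clusters were called higher and 0.439% lower. Intact-mated exceeded vasectomised-mated endometrium for 3 of 10, Sprr2b, Sprr2d and Sprr2e, and 0 were lower, where 0.394% of clusters were called higher and 0.402% lower. Both comparisons with controls rest on the same 4 control arrays. Without adjustment, p fell under 0.05 for 7 members after intact mating, 7 after vasectomised mating and 4 between the mated groups, all of them higher, where 11.9%, 11.8% and 7% of all clusters were higher by that measure.

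All 4 intact-mated arrays lay above all 4 controls for 7 of 10 members, against 8.05% of all clusters. The same held for vasectomised-mated arrays over controls in 6 members, against 7.06%, and for intact-mated over vasectomised-mated arrays in 4 members, against 6.62%. The median log2 fold-change of the 10 genes was 0.53 after intact mating, 0.29 after vasectomised mating and 0.16 between the mated groups, beside 0.01, 0.01 and -0.00 over all clusters. Sprr genes resemble each other, so a probe can take signal from a relative. Counts over the members are therefore not counts of independent genes.

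**Figure D2:**
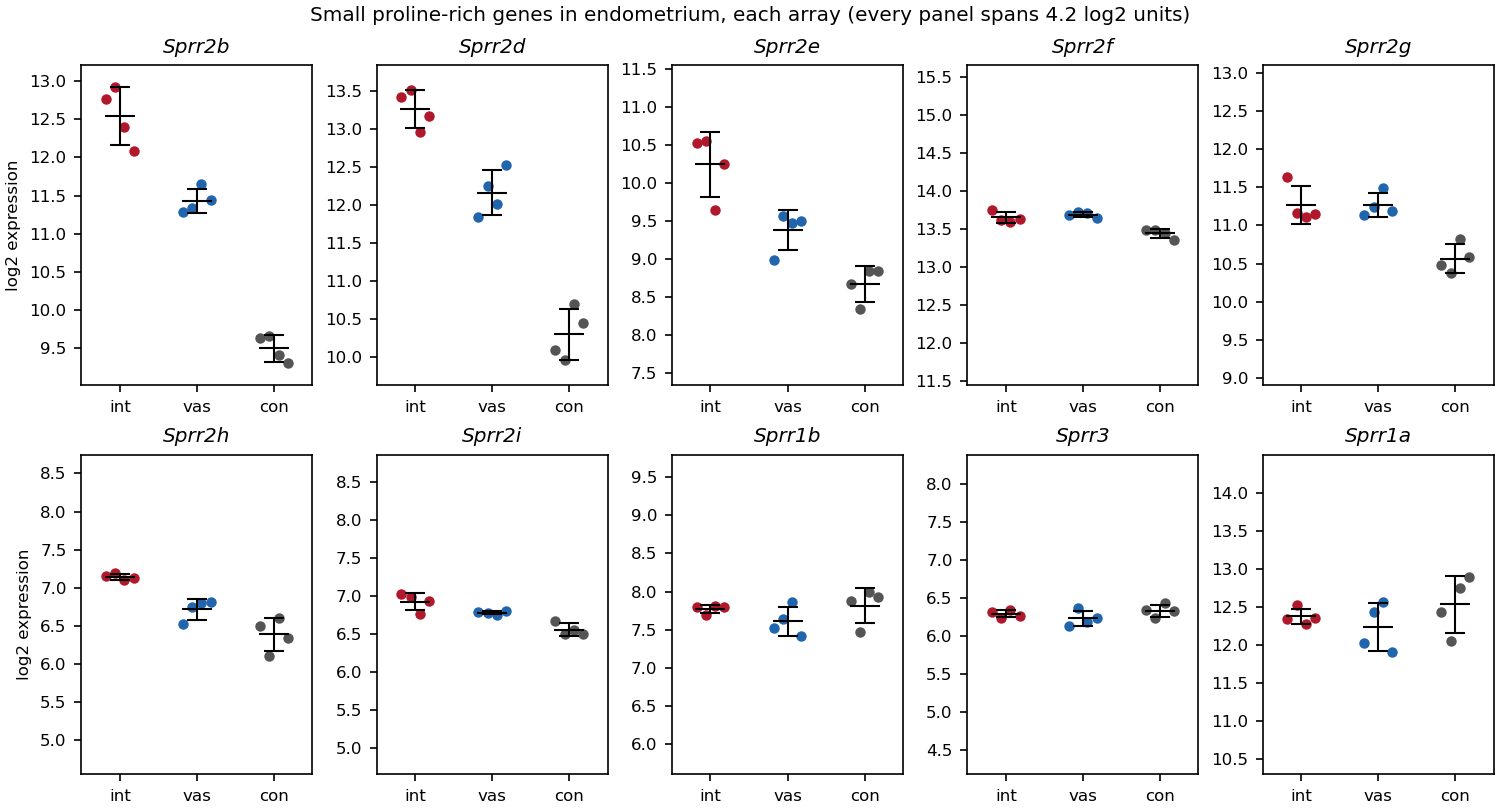
Log2 expression of the 10 genes on each array after intact mating (int, red), after vasectomised mating (vas, blue) and in unmated controls (con, grey), with the mean and SD of the 4 arrays of each group; every panel spans the same number of log2 units. Sprr2b and Sprr2d form 3 separate levels, whereas Sprr1a, Sprr1b and Sprr3 overlap in all groups.

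Sprr2b and Sprr2d carried the largest responses of the family. Sprr2b read 12.77, 12.93, 12.40 and 12.08 on the intact-mated arrays, 11.29, 11.33, 11.65 and 11.44 on the vasectomised-mated arrays, and 9.63, 9.65, 9.40 and 9.29 on the controls. Every intact-mated array lay above every vasectomised-mated array, and these above every control. Sprr2b was 8.29-fold higher after intact mating than in controls (log2 fold-change 3.05, SE 0.16, adjusted p 1.5e-06) and 3.82-fold higher after vasectomised mating (log2 fold-change 1.93, SE 0.16, adjusted p 0.000239). Between the mated groups it was 2.17-fold higher after intact mating, with a 95% interval between 1.70-fold and 2.78-fold (adjusted p 0.00821).

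Sprr2d read 13.42, 13.51, 12.96 and 13.17 after intact mating, 11.85, 12.25, 12.01 and 12.53 after vasectomised mating, and 10.10, 9.97, 10.70 and 10.45 in controls. Its 3 groups were again separate, although the control arrays spread wider than those of Sprr2b. The rise over controls was 7.78-fold after intact mating (log2 fold-change 2.96, SE 0.18, adjusted p 3.255e-06) and 3.62-fold after vasectomised mating (log2 fold-change 1.86, SE 0.18, adjusted p 0.000367). Intact-mated endometrium exceeded vasectomised-mated endometrium 2.15-fold, with an interval between 1.63-fold and 2.84-fold (adjusted p 0.0129). Both genes kept each of these 3 calls under every one of the 26 alternative settings and array omissions tried. Among these, the mean of all rows repeated the main fit, since neither gene had a further cluster of its own. Dropping the fold threshold could only add calls.

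Sprr2e, whose promoter window is the nearest to that of Sprr2d, moved less. It read 10.53, 10.55, 9.65 and 10.25 after intact mating, 8.995, 9.56, 9.47 and 9.50 after vasectomised mating, and 8.68, 8.34, 8.84 and 8.84 in controls. No group overlapped another, but intact-mated pool 3 came close to the vasectomised-mated arrays and vasectomised-mated pool 1 close to the controls. Sprr2e was 2.97-fold higher after intact mating than in controls (log2 fold-change 1.57, SE 0.20, adjusted p 0.000309). After vasectomised mating it was 1.63-fold above controls with an adjusted p of 0.0693, and it was not called, except without vasectomised-mated pool 1 (adjusted p 0.0482), without intact-mated pool 3 (0.0246) or with dim clusters removed (0.0413). Between the mated groups it was 1.82-fold higher after intact mating (interval 1.35 to 2.45, adjusted p 0.0433). That call was lost under 13 of 26 alternatives, among them the omission of any vasectomised-mated array (adjusted p 0.0671 to 0.103), of intact-mated pool 1, 2 or 4 (0.0789 to 0.12) and of control 1 or 4 (0.0551 and 0.0510).

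Sprr2h and Sprr2i were dim, with means under the median cluster mean of 7.28. Sprr2h read 7.15, 7.19, 7.10 and 7.12 after intact mating, 6.52, 6.74, 6.80 and 6.81 after vasectomised mating, and 6.50, 6.11, 6.59 and 6.34 in controls. The intact-mated arrays stood clear of both other groups, which overlapped each other. Sprr2h was 1.69-fold higher after intact mating than in controls (log2 fold-change 0.76, SE 0.10, adjusted p 0.000481). The log2 fold-change was 0.33 for vasectomised-mated arrays against controls (adjusted p 0.0943) and 0.42 between the mated groups (adjusted p 0.0503), and neither was called.

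Sprr2i read 7.02, 6.99, 6.76 and 6.93 after intact mating, 6.79, 6.77, 6.76 and 6.80 after vasectomised mating, and 6.68, 6.50, 6.56 and 6.50 in controls. Both mated groups lay above all controls, while intact-mated pool 3 fell within the range of the vasectomised-mated arrays. Its difference from controls was 0.37 after intact mating (adjusted p 0.0047) and 0.22 after vasectomised mating (adjusted p 0.0986), short of the 1.5-fold threshold in both. The interval of the difference between the mated groups ran between -0.00 and 0.29.

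Sprr2g and Sprr2f lay above controls in both mated groups. Sprr2g, annotated in RefSeq as a transcribed pseudogene, read 11.64, 11.17, 11.11 and 11.15 after intact mating, 11.14, 11.24, 11.49 and 11.20 after vasectomised mating, and 10.48, 10.38, 10.82 and 10.59 in controls. All mated arrays lay above all controls, and the mated groups ran through each other. The rise was 1.63-fold after intact mating (log2 fold-change 0.70, SE 0.13, adjusted p 0.00453) and also 1.63-fold after vasectomised mating (adjusted p 0.0112). The difference between the mated groups was -0.00 on the log2 scale, with an interval between -0.28 and 0.28. Without intact-mated pool 1, the brightest array for Sprr2g, the log2 fold-change over controls after intact mating was 0.58, below the fold threshold, and without controls 1 and 2 it was 0.56 after each kind of mating, with neither called.

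Sprr2f, a gene known for its strong estrogen-dependent expression in mouse endometrial epithelium, was bright everywhere, above 99.8% of clusters on average. It read 13.75, 13.62, 13.60 and 13.64 after intact mating, 13.69, 13.72, 13.71 and 13.64 after vasectomised mating, and 13.49, 13.48, 13.45 and 13.35 in controls. Mated arrays were all above the controls by a small step. That step was 0.21 on the log2 scale after intact mating (SE 0.06, adjusted p 0.0385) and 0.25 after vasectomised mating (SE 0.06, adjusted p 0.0332), under 1.5-fold in both. Between the mated groups the interval was -0.16 to 0.09. Whether the brightness of this cluster bears on the size of its fold-change was not tested.

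The members outside the Sprr2 branch were not called in any comparison. Sprr1a, the brightest of them, read 12.34, 12.52, 12.27 and 12.36 after intact mating, 12.02, 12.43, 12.56 and 11.91 after vasectomised mating, and 12.43, 12.05, 12.75 and 12.89 in controls. Its groups overlapped throughout, with the widest spread among controls. The log2 difference from controls was -0.16 after intact mating (interval -0.55 to 0.24) and -0.30 after vasectomised mating (interval -0.69 to 0.10).

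Sprr1b, a marker of squamous differentiation, read 7.79, 7.70, 7.81 and 7.80 after intact mating, 7.52, 7.64, 7.86 and 7.41 after vasectomised mating, and 7.88, 7.47, 7.99 and 7.93 in controls. Sprr3, known for its expression in oesophageal and oral epithelium, read 6.31, 6.24, 6.34 and 6.27 after intact mating, 6.14, 6.37, 6.18 and 6.24 after vasectomised mating, and 6.34, 6.23, 6.43 and 6.33 in controls. Both genes overlapped between all groups. Their log2 differences from controls after intact mating were -0.04 for Sprr1b (interval -0.30 to 0.21) and -0.04 for Sprr3 (interval -0.19 to 0.11). After vasectomised mating they were -0.21 for Sprr1b (interval -0.46 to 0.05) and -0.10 for Sprr3 (interval -0.25 to 0.05).

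The remaining relatives on the array did not pass the thresholds. Of Sprr2j-ps, a pseudogene, Sprr2k and Sprr4, 0 of 3 were called in any comparison. Sprr2k, which carries all 3 motifs shown above, averaged 7.21 ± 0.10 after intact mating, 7.01 ± 0.04 after vasectomised mating and 7.01 ± 0.16 in controls (SD, n = 4 each). Its log2 difference from controls after intact mating was 0.21 (adjusted p 0.146). The cluster shared by Sprr2a1, Sprr2a2, Sprr2a3 and Sprr2b was bright, at 13.62 ± 0.06 after intact mating, 13.53 ± 0.04 after vasectomised mating and 13.45 ± 0.11 in controls (SD, n = 4 each). Its log2 fold-change over controls was 0.16 after intact mating (adjusted p 0.149) and 0.08 after vasectomised mating (adjusted p 0.563). The cluster that carries Sprr2b alone rose by 3.05 and 1.93, and averaged 9.49 in controls, far dimmer than the shared cluster. How much of the shared signal comes from Sprr2b was not tested, so the shared cluster does not serve as a second reading of that gene. The 2 clusters shared by Sprr2a1 and Sprr2a3 held identical values, with a log2 fold-change over controls of 0.16 after intact mating (adjusted p 0.158).

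The called genes were neighbours. Along chromosome 3 the RefSeq order runs Sprr2a1, Sprr2a2, Sprr2a3, Sprr2b, Sprr2d, Sprr2e, Sprr2f, Sprr2g, Sprr2h, Sprr2i, Sprr2k, Sprr1b, Sprr3, Sprr1a and Sprr4, pseudogenes apart from Sprr2g left out. Every member called in any comparison lay in the stretch between Sprr2b and Sprr2h, with Sprr2f inside it as the member that was not called. In that order of Sprr2b, Sprr2d, Sprr2e, Sprr2f, Sprr2g and Sprr2h, log2 fold-changes over controls were 3.05, 2.96, 1.57, 0.21, 0.70 and 0.76 after intact mating and 1.93, 1.86, 0.71, 0.25, 0.70 and 0.33 after vasectomised mating.

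**Figure D3:**
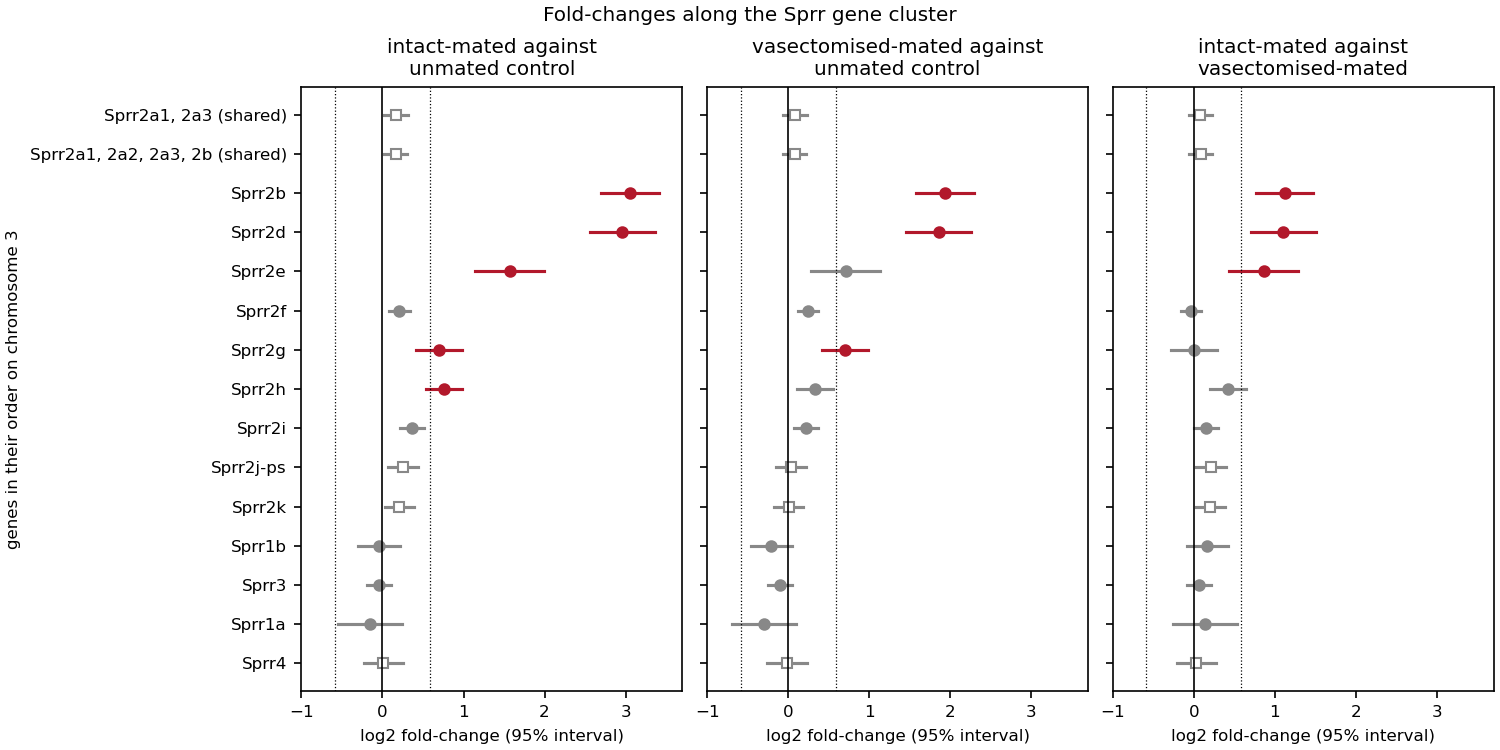
Log2 fold-change (points) with 95% interval (bars) for Sprr clusters in chromosomal order, for intact-mated against control, vasectomised-mated against control and intact-mated against vasectomised-mated endometrium. Filled circles are members, open squares other Sprr clusters, red marks a call and dotted lines mark 1.5-fold. Calls lie between Sprr2b and Sprr2h, and Sprr2b and Sprr2d are red in all 3 panels.

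Over the 12 arrays, Sprr2b had the widest SD of the members and served as the pattern to which other genes were set. Among 19938 genes with a cluster that carries their symbol alone, the closest outside the family were Clca3b (Pearson r 0.987), Slc39a4 (0.984), Clca3a1 (0.983), Cebpd (0.983) and C2 (0.982). Clca3b and Clca3a1 encode secreted chloride channel accessory proteins, Slc39a4 a zinc importer, Cebpd a transcription factor of acute inflammation and C2 a complement component. Clca3b averaged 12.18 on the log2 scale after intact mating, 10.53 after vasectomised mating and 7.56 in controls, the same order of groups as Sprr2b. These correlations describe 12 arrays that fall into 3 groups, and with the group means removed they were 0.71 for Clca3b, 0.45 for Slc39a4, 0.51 for Clca3a1, 0.74 for Cebpd and 0.50 for C2. Within the family Sprr2d followed Sprr2b at 0.97, Sprr2i at 0.92, Sprr2e at 0.91, Sprr2h at 0.90, Sprr2g at 0.83 and Sprr2f at 0.81, whereas Sprr1b, Sprr1a and Sprr3 stood at -0.19, -0.29 and -0.31. With the group means removed, the family's correlations with Sprr2b were low, at 0.11 for Sprr2d, 0.40 for Sprr2i, 0.30 for Sprr2e, 0.12 for Sprr2h, 0.26 for Sprr2g and 0.43 for Sprr2f, so the likeness lay between groups more than between arrays of a group.

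Few other genes of the epidermal differentiation complex or of the cornified envelope were called. Of 47 measured genes of the epidermal differentiation complex, 1 was higher after intact mating than in controls, 0 after vasectomised mating and 1 between the mated groups, and 0 were lower in each. That gene was S100a9, a calcium-binding protein abundant in neutrophils, at 7.32 after intact mating, 6.15 after vasectomised mating and 5.89 in controls as log2 means (adjusted p 0.00166 for intact-mated against control). The median log2 fold-change of the 47 was 0.07 after intact mating, -0.05 after vasectomised mating and 0.10 between the mated groups. Beside these counts, 1.95%, 0.987% and 0.394% of all clusters were called higher. Of the 47, 38 averaged under the median cluster mean of 7.28 in every group, 8 above it in every group and 1 on either side. These dim levels limit what the absence of calls can show. Of 21 transglutaminases, plakins and other envelope partners, 0 were called in any comparison. Among these 21, 9 averaged under 7.28 in every group, 10 above it in every group and 2 on either side. Tgm1, the transglutaminase that crosslinks envelope proteins in keratinocytes, averaged 7.09 after intact mating, 6.79 after vasectomised mating and 6.74 in controls (adjusted p 0.0503 for intact-mated against control). Dsp, the desmosomal plakin, averaged 11.75 after intact mating, 11.90 after vasectomised mating and 12.02 in controls, a difference of -0.27 after intact mating (adjusted p 0.0255) under 1.5-fold.

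Transcription factors known from work on SPRR promoters or squamous and mucosal epithelium were called only in the higher direction at the 1.5-fold threshold. After intact mating 7 of 30 were higher than in controls and 0 lower. After vasectomised mating 2 of 30 were higher and 0 lower, and between the mated groups 0 of 30 were called. Between the mated groups 2 were higher under quantile normalization and under median centring, and 1 without either pair of controls (1 and 2, or 3 and 4). With the fold threshold dropped, 6 were higher after vasectomised mating than in controls and 3 between the mated groups. Those 3 were Cebpd at 0.58 (adjusted p 0.0398), Klf5 at 0.47 (0.00568) and Fos at 0.33 (0.0294) on the log2 scale. Cebpd rose by 1.53 on the log2 scale after intact mating (adjusted p 1.861e-05) and by 0.94 after vasectomised mating (adjusted p 0.00224). Grhl3, a grainyhead factor of epithelial barrier formation, rose by 1.28 after intact mating (adjusted p 0.000237) and by 0.67 after vasectomised mating (adjusted p 0.0326). Klf5 rose by 0.86 after intact mating (adjusted p 6.697e-06), as did Fos, a component of AP-1, by 0.84 (adjusted p 1.27e-05). No other Fos or Jun gene was called after intact mating. Their log2 differences from controls were 0.23 for Fosb, 0.24 for Fosl1, -0.03 for Fosl2, -0.36 for Jun, 0.38 for Junb and -0.01 for Jund. Of these, only Junb had an adjusted p under 0.05 (0.00389), and it fell short of 1.5-fold. Without the fold threshold 3 of the 30 were lower after intact mating than in controls. They were Klf4 at -0.35 (adjusted p 0.00866), Ets2 at -0.44 (0.01525) and Grhl2 at -0.28 (0.0438) on the log2 scale.

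Genes known to respond to estrogen in the uterus did not move together. Of 38 measured, 8 were higher and 9 lower after intact mating than in controls. After vasectomised mating 3 were higher and 6 lower, and between the mated groups 3 were higher and 1 lower, or 0 lower under quantile normalization or median centring. The lower count between the mated groups was 2 with either pair of controls left out (1 and 2, or 3 and 4) and 3 with no fold threshold. Without controls 1 and 2, 5 were higher after vasectomised mating, and 8 were with no fold threshold on all arrays. The chloride channel accessory genes rose furthest, Clca3b by 4.62 and Clca3a2 by 4.28 on the log2 scale after intact mating (adjusted p 4.654e-06 and 1.5e-06). Greb1, a direct target of the estrogen receptor, averaged 8.17 after intact mating, 8.93 after vasectomised mating and 10.70 in controls, a fall of 2.52 on the log2 scale after intact mating (adjusted p 4.654e-06). Sprr2b and Sprr2d were thus higher in both mated groups, as were Clca3a1, Clca3a2 and Clca3b, while Greb1 was lower in both. Of 16 progesterone-responsive genes, 1 was higher and 3 lower after intact mating, and 0 were called in the other comparisons. Without controls 3 and 4 these counts were 0 higher and 5 lower after intact mating and 4 lower after vasectomised mating. Zbtb16, a zinc finger factor induced by progesterone, fell by 1.20 on the log2 scale after intact mating (adjusted p 0.00862), while Acod1, an enzyme of itaconate synthesis, was higher by 1.46 (adjusted p 0.0154).

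Markers of the cell types in the scraped layer were read beside these results. Of 19 markers of uterine epithelium, 2 were higher and 1 lower after intact mating, 1 was higher and 0 lower after vasectomised mating, and 0 were higher and 1 lower between the mated groups. Without controls 1 and 2, 5 were higher after intact mating, 3 higher and 1 lower after vasectomised mating, and 1 higher between the mated groups. Their mean per array lay between 11.39 and 11.49 after intact mating, 11.35 and 11.39 after vasectomised mating, and 11.16 and 11.39 in controls. Prom1, a surface protein of luminal epithelium, was 0.90 higher on the log2 scale after intact mating (adjusted p 0.000375) and 0.83 higher after vasectomised mating (adjusted p 0.00241). Lifr, the receptor for leukemia inhibitory factor, fell by 1.06 on the log2 scale after intact mating (adjusted p 0.00235). The part of epithelial content in the Sprr2 results was not tested.

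Of 22 squamous epithelium markers, 1 was higher and 1 lower after intact mating, 0 were higher and 1 lower after vasectomised mating, and 1 was higher and 0 lower between the mated groups. Without controls 1 and 2, 0 were higher and 0 lower after intact mating. Without controls 3 and 4, 2 were higher and 0 lower after intact mating, and 0 were lower after vasectomised mating. Dsg3, a desmosomal cadherin, was 1.04 higher on the log2 scale after intact mating (adjusted p 0.00663), and Krt13, a keratin of mucosal squamous epithelium, fell by 0.72 (adjusted p 0.0241). Krt6b, a keratin of activated keratinocytes, was 1.13 higher after intact than after vasectomised mating (adjusted p 0.0486). The mean of the squamous list per array lay between 6.68 and 6.90 after intact mating, 6.56 and 6.67 after vasectomised mating, and 6.58 and 6.84 in controls. Of the 22, 15 averaged under the median cluster mean of 7.28 in every group, 4 above it in every group and 3 on either side.

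Neutrophil markers were called in both comparisons that involve intact mating. Of 21, 9 were higher and 0 lower after intact mating than in controls, 0 were called after vasectomised mating, and 7 were higher and 0 lower between the mated groups. Without controls 1 and 2, 1 was lower after intact mating, and 1 was higher and 1 lower after vasectomised mating. With no fold threshold 1 was higher after vasectomised mating. Their mean per array ran between 6.99 and 7.37 after intact mating, 6.59 and 6.78 after vasectomised mating, and 6.47 and 6.56 in controls. Slfn4, an interferon- and myeloid-induced gene, was 2.46 higher on the log2 scale (adjusted p 2.885e-05) and Cxcr2, the chemokine receptor of neutrophils, 2.25 higher after intact mating than in controls (adjusted p 0.000162). Of the 21, 14 averaged under 7.28 in every group, 3 above it in every group and 4 on either side. The part of neutrophil RNA in the difference of Sprr2b, Sprr2d and Sprr2e between the mated groups was not tested. Of 14 stroma markers, 0 were higher and 3 lower after intact mating, and 0 were called in the other comparisons. Lum, a collagen-binding proteoglycan, fell by 0.97 on the log2 scale after intact mating (adjusted p 0.00886). The control arrays differed among themselves on the second principal component, where controls 1 and 2 scored 11.02 and 16.68 and controls 3 and 4 scored -31.30 and -22.00. Without controls 3 and 4, 10 stroma markers were lower after intact mating and 3 after vasectomised mating. Without controls 1 and 2, 0 were lower after intact mating. Sprr2b, Sprr2d, Sprr2e and Sprr2h remained called higher after intact mating with either pair of controls left out. Of 8 smooth muscle markers, 0 were called in any comparison.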

How the data were processed

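Endometrial RNA of 12 pools was measured on Affymetrix Mouse Gene 1.0 ST arrays, 300 ng per array. In Partek Genomics Suite the authors applied RMA background correction, corrected for probe GC content and took the mean of the probes, and the deposited values are log2 expression. The sources used here give no version of Partek Genomics Suite. Per-array columns not used numbered 0. Symbols came from the platform annotation paired with the clusters. Of 35556 clusters, 21789 carried 1 symbol, 1621 several and 12146 none. All 10 members matched RefSeq by symbol and Entrez ID. Genes with several clusters were represented by the brightest. Each cluster was fitted in limma 3.58.1 (R 4.3.3) with 1 mean per group over all arrays with empirical Bayes moderation and no trend term (3.26 prior and 9 residual degrees of freedom), on the deposited values with no further normalization. Correction ran over all clusters. Median log2 values lay between 7.25 and 7.32, and correlations within groups were at least 0.983. Labels do not name the females, and p-values measure the spread between pools. The number of arrays limits the precision.

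Promoter identity was computed with Biopython 1.88 by global alignment. Alternatives were quantile normalization, median centring, trended and robust moderation, no moderation (the methods' ANOVA), array weights, a fit of the 2 groups alone, a replicate block, a correction restricted to clusters that carry a symbol, dropping dim clusters (mean below 7.28), the mean of all rows of a member, a 2-fold or no fold threshold, each array left out, and controls 1 and 2 or 3 and 4 left out. Code was tested on simulated data. Named genes were all Sprr genes, up to 4 genes per list with the largest change and the 5 genes most correlated with Sprr2b. Members, the 11 lists and the settings were chosen with earlier results of these data known.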

Additional observations from a re-analysis of the deposited data

Results flagged for a closer look

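With 30 sets of 4 arrays examined for an array far from the others, chance alone marks about 1 in 20, and 3 stood out. Sprr1b read 7.70 on intact-mated pool 2, where the nearest intact-mated array read 7.79. Sprr2e read 8.995 on vasectomised-mated pool 1, with the nearest array of that group at 9.47. Sprr2g read 11.64 on intact-mated pool 1, with the nearest at 11.17. The responses of the 2 mated groups differed by the limma test of intact-mated against vasectomised-mated endometrium for 3 genes, by 1.12 for Sprr2b, 1.10 for Sprr2d and 0.86 for Sprr2e on the log2 scale, higher after intact mating in each.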

How the results depend on the processing

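Of 771 member values recomputed under 26 alternatives, 746 kept their side of the thresholds, 10 of them with a changed sign and no call, 19 lost a call, 6 gained one and 0 reversed a call. The mean of all rows of a member repeated the main fit, since no member had a further cluster of its own. Dropping the fold threshold could only add calls, so values kept under these settings say little about stability. With a fold threshold of 2, 3 members were higher after intact mating than in controls in place of 5, Sprr2g and Sprr2h falling out. Same-numbered pools of different groups had correlations of deviations between -0.255 and 0.205. These were not set against differently numbered pools, and whether the numbers pair anything was not tested. With the replicate block, members called higher numbered 5 for intact-mated against control, 3 for vasectomised-mated against control and 2 for intact-mated against vasectomised-mated, Sprr2e being lost with an adjusted p of 0.0987. With no variance moderation Sprr2e had an adjusted p of 0.0984 between the mated groups, and over all its alternatives the adjusted p ran between 0.0182 and 0.12. Between vasectomised-mated and control arrays Sprr2e was called when dim clusters were removed (adjusted p 0.0413), without vasectomised-mated pool 1 (0.0482) and without intact-mated pool 3 (0.0246). With arrays left out in turn, 4 to 5 members were higher after intact mating than in controls, 3 to 4 after vasectomised mating and 2 to 3 between the mated groups. Counts of the gene lists, recomputed under quantile normalization, median centring, no fold threshold and without controls 1 and 2 or 3 and 4, moved by over 1.5 times in 46 of 330 values. Under removal of dim clusters 7 members were tested. The dim levels of Sprr2h, Sprr2i and Sprr3 limit what can be read from their small differences.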
